A study of Rattus norvegicus with 2 samples.

Results

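The genes described are 10 that code for proteins of the microtubule lattice and of microtubule ends other than MAP1B, Tau and MAP2. They were chosen by name: Map4, Map6, Map1a and Map9 as lattice-binding microtubule-associated proteins (MAPs), Mapre1, Mapre2 and Mapre3 as the end-binding (EB) family, Clasp2 and Ckap5 as further plus-end proteins, and Katna1 as a severing enzyme. A value was found for 9 of the 10 among the 9894 genes listed in either library. Ckap5 was found neither by symbol nor by description and is not analysed here. Of the 9 genes, 9 were listed with Scramble against 8 with PIWIL1 RNAi.

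The study compared mRNA of primary cortical neurons of E16 Sprague-Dawley rats. These neurons were dissociated, electroporated with plasmid and kept for 48 h in Neurobasal medium with serum and B27. The Scramble group received a control plasmid and the PIWIL1 RNAi group a plasmid against PIWIL1, a PIWI protein best known from the germline; each group is 1 library, and both groups went through the same dissociation, electroporation and culture. The siRNAs were carried in a pSuper vector, but which rat siRNA was sequenced, how many embryos were pooled and what share of the cells took up plasmid are not stated, and no sorting of electroporated cells is described for this culture. Transcripts were read by digital gene expression profiling: a cDNA is cut at CATG, and a 21-base tag that begins with this CATG is sequenced and counted. The deposited values are the copies of each tag, their sum for each gene, and that sum scaled to the clean tags of the library (TPM), which contains no term for gene length. Levels are compared here between libraries, and shares or ratios of copies between genes are read only for their change between the libraries.

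Microtubules are polymers of tubulin whose plus ends grow and shrink while their minus ends are usually anchored. Lattice MAPs bind along the polymer, stabilise it and set its spacing, and neurons use them to build axons and dendrites. EB proteins ride on growing plus ends and recruit other plus-end proteins, CLASPs help a shrinking end to regrow, and katanin cuts microtubules into shorter pieces.

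The Scramble library held 1947600 copies on genes (57.5% of 3386865 clean tags) and the PIWIL1 RNAi library 1865913 (56.5% of 3303360). A level of 3 copies, taken as the least that the depth can show, was 0.886 TPM and 0.908 TPM. No tag with fewer than 2 copies was listed. No value was found under the symbol Piwil1, so the knockdown was not checked in these libraries. Defining neuronal markers were abundant (Tubb3 1538 and 1068 copies, Stmn2 7484 and 5678), but Rbfox3 (NeuN) had 8 copies in each library, Bcl11b was not listed, and Syt1 was listed only with PIWIL1 RNAi, with 5 copies. With 1 library per group there was no replicate check. A two-sided Fisher's exact test of each gene's copies against all other copies on genes, with Benjamini-Hochberg adjustment over the 9894 genes (FDR), compares these 2 libraries and not the conditions. Calls needed an FDR no greater than 0.05 together with a log2 TPM ratio of at least 0.58 in size, and genes present in one library alone were taken to meet the latter. Intervals are exact at 95% and cover counting error only, not variation between replicates. They take copies as independent, which copies amplified by PCR are not, so they may be too narrow.

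The tags that carried the results on Map4, Mapre1 and Mapre3 are shown because they tell at which CATG site of each transcript the copies were read. They are written 5′ to 3′ with the CATG in capitals, and sites are numbered from the 3′ end of the transcript.
Map4, site 1: CATGgcttagccatttcctgt
Map4, site 2: CATGtggtgtgcatacttcga
Map4, site 4: CATGgtttctaataaagaatt
Map4, site 5: CATGgatgggatggctgcaat
Mapre1, site 1: CATGctctgtggaattcagag
Mapre1, site 3: CATGgttgcttgggtgaagag
Mapre1, site 5: CATGgggcccttcaatgtgga
Mapre3, site 1: CATGacctccaggcactgggc
Mapre3, site 2: CATGtaaggggtagacatgac

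The genes did not move together. Of the 9 genes, 2 lattice MAPs were called lower in the PIWIL1 RNAi library, Map4 and Map9, none was called higher, and 7 were not called, while 5.97% of all genes tested were called lower and 2.96% higher (591 and 293 genes, or 459 and 398 with TMM factors). With an assumed biological variation as small as 0.1 in edgeR's exact test, none of the 9 was called. By FDR alone, 2 of the 9 were lower, against 9.53% of all genes, and 3 were higher, against 7.14%; these 3 were Mapre1, Mapre2 and Mapre3. For the 8 genes present in both libraries the median log2 ratio was -0.11, beside -0.085 over all genes, so the median of the group hides a lower Map4 and a higher EB family. These counts are descriptive, since the genes were chosen with results of these libraries known. In a bulk culture, fewer cells of a type and less RNA per cell cannot be told apart.

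**Figure D1:**
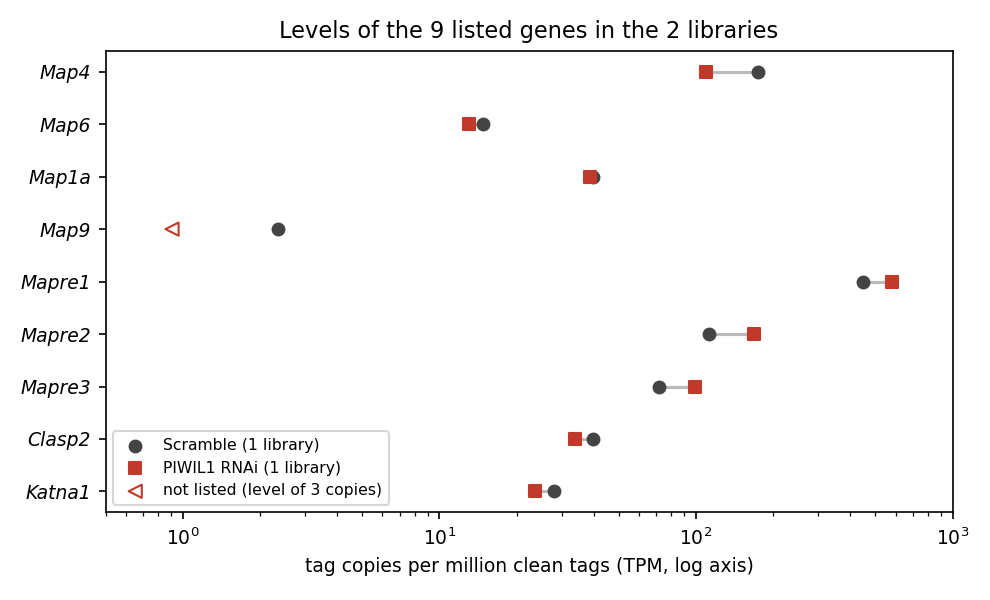
Level of each of the 9 listed genes in TPM (tag copies scaled to clean tags, log axis) in the Scramble library (circles) and the PIWIL1 RNAi library (squares), 1 library each and thus no error bars. Map4 lies at 174 and 109 TPM and the 3 EB genes lie to the right in the PIWIL1 RNAi library; the open triangle marks the level of 3 copies for Map9, which was not listed there.

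Among the lattice MAPs, Map4, the MAP found in most tissues, had 589 copies with Scramble against 360 with PIWIL1 RNAi, or 174 and 109 TPM. The log2 ratio was -0.67 (95% interval -0.87 to -0.48, Fisher's exact FDR 4.33e-10), so Map4 fell between these libraries, although with TMM factors, which scale on the bulk of genes, its log2 ratio of -0.5798 missed the threshold. Map9, a MAP of the spindle and of cilia (also known as ASAP), had 8 copies (2.36 TPM) on 2 tags with Scramble and none listed with PIWIL1 RNAi. Set against the level of 3 copies, Map9 was 2.60-fold lower, a figure that leaves out the counting error of its 8 copies. The 95% interval for its log2 ratio reached up to -0.74, which allows a smaller fall. Its FDR of 0.0480 by Fisher's exact test lay just inside the threshold. Its 8 copies were split as 6 at site 4 and 2 at site 5, and with tags seen once absent from the tables, up to 1 copy of either tag could go unlisted. With 1 copy restored for every tag seen in one library alone, the FDR of Map9 was 0.360 by the same exact test.

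Map6, also called STOP, which makes neuronal microtubules resistant to cold, had 50 copies with Scramble against 43 with PIWIL1 RNAi. Its log2 ratio was -0.18 (95% interval -0.80 to 0.44), and no difference could be detected at this depth. Map1a, a MAP of mature neurons and dendrites related to MAP1B, had 135 and 128 copies. Its log2 ratio was -0.04 (95% interval -0.40 to 0.32), an interval that leaves out the log2 ratio of Map4 as deposited (-0.67). The interval includes the log2 ratio of Map4 without its most copied tag (-0.26). The lattice MAPs therefore held a well-read gene that was lower, a thinly read gene that was no longer listed, and a pair whose levels could not be told apart between the libraries.

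In the EB family, Mapre1, which codes for EB1, had 1522 copies with Scramble against 1926 with PIWIL1 RNAi (449 and 583 TPM). The log2 ratio was 0.38 (95% interval 0.28 to 0.47, Fisher's exact FDR 2.14e-14), short of the ratio threshold. Mapre2, which codes for EB2, had 380 and 554 copies, or 112 and 168 TPM. Its log2 ratio of 0.5799 (95% interval 0.39 to 0.77) stood immediately under the threshold of 0.58 (Fisher's exact FDR 7.41e-09). Scaled to copies on genes in place of all clean tags, the log2 ratio was 0.61 and Mapre2 was called higher, so its call rested on the scaling. Mapre3, which codes for EB3, the family member enriched in the nervous system, had 242 and 326 copies, or 71.5 and 98.7 TPM. Its log2 ratio was 0.47 (95% interval 0.22 to 0.71, Fisher's exact FDR 0.000724). Summed over tags, all 3 EB genes were thus higher in the PIWIL1 RNAi library, each by less than the ratio threshold. Their 95% intervals lay wholly on the higher side. For Mapre1 this rested on its most copied tag, without which the log2 ratio was -0.08. With an assumed biological variation of 0.1 none of the 3 passed the FDR threshold in edgeR's exact test.

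The ratios of the 3 EB genes could not be told apart from each other. The difference of log2 ratios, computed from copies within the libraries and free of any scaling between them, was 0.20 for Mapre2 minus Mapre1 (95% exact interval -0.01 to 0.42), 0.09 for Mapre3 minus Mapre1 (-0.17 to 0.36) and 0.11 for Mapre2 minus Mapre3 (-0.20 to 0.43). Each interval included 0, which does not show that the genes moved alike. Mapre1 made up 71.0% of the family's 2144 copies in the Scramble library and 68.6% of its 2806 copies in the PIWIL1 RNAi library. Mapre2 made up 17.7% and 19.7%, and Mapre3 11.3% and 11.6%. Against Map4 the difference was larger: the log2 ratio of Mapre1 exceeded that of Map4 by 1.05 (95% exact interval 0.83 to 1.27), that of Mapre2 by 1.25 (0.98 to 1.53) and that of Mapre3 by 1.14 (0.83 to 1.45). The family held 3.64 copies for each copy of Map4 with Scramble against 7.79 with PIWIL1 RNAi. These differences rested in part on single tags: without the most copied tag of each gene the log2 ratio was -0.26 for Map4, -0.08 for Mapre1, 0.66 for Mapre2 and 0.50 for Mapre3, and with copies corrected for the tag end it was -0.42, 0.24, 0.48 and 0.35. A ratio between genes within a library shows unequal change and not which of them moved.

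**Figure D2:**
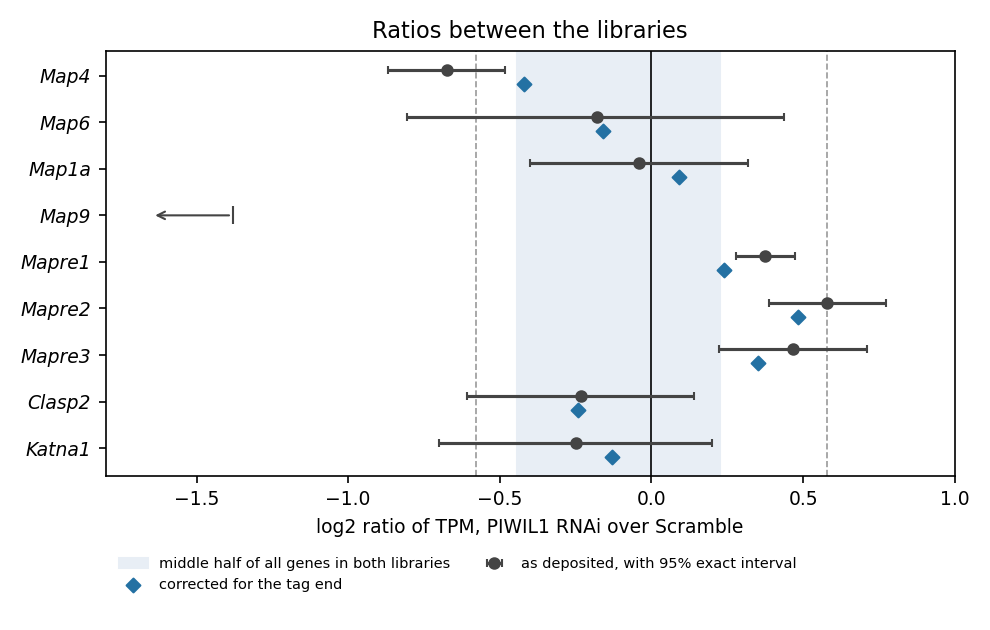
Log2 ratio of TPM, PIWIL1 RNAi over Scramble, for the 9 listed genes. Black circles are the deposited values with 95% exact intervals (counting error), and blue diamonds the values after correction for the tag end. Dashed lines are the thresholds of 0.58 in each direction, and the shaded band is the range between the quartiles of all genes listed in both libraries. The arrow for Map9 starts at -1.38, its value against the level of 3 copies. As deposited, Map4 lies left of the band (-0.44 to 0.23) and the 3 EB genes right of it, while Map6, Map1a, Clasp2 and Katna1 have intervals across 0. After correction Map4 (-0.42) lies inside this band, and Mapre1 (0.24) lies just outside it. The band is of deposited values, and none was computed for corrected values, so the corrected points cannot be placed within their own spread.

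The remaining plus-end and severing genes were not called. Clasp2, whose product promotes rescue of shrinking microtubules and links them to the cell cortex, had 135 copies with Scramble against 112 with PIWIL1 RNAi. Its log2 ratio was -0.23 (95% interval -0.61 to 0.14). Katna1, the catalytic p60 subunit of katanin, had 95 and 78 copies and a log2 ratio of -0.25 (95% interval -0.70 to 0.20). Both values were below 0 with intervals that included it, so neither gene differed detectably at this depth. The 2 intervals lay below the log2 ratio of 0.38 of Mapre1.

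The tags show where along each transcript these differences were read. The 9 genes were read from 94 tags, of which 33 reached 20 copies over the libraries together and held 95.1% of the copies. In a Fisher's exact test per tag, adjusted over all 53118 tags, 3 of the 94 tags were called lower, against 1.69% of all tags, and 2 were called higher, against 1.05%. The lower tags were at sites 1 and 2 of Map4 and at site 5 of Mapre1, and the higher ones at site 4 of Mapre2 and site 2 of Mapre3. No tag of Map6, Map1a, Map9, Clasp2 or Katna1 was called.

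Map4 was called lower at sites 1 and 2 and not at its other sites. Its tag at site 1, nearest the 3′ end, had 251 copies with Scramble against 85 with PIWIL1 RNAi, a log2 ratio of -1.53 (95% interval -1.90 to -1.17, Fisher's exact FDR 2.57e-16). The tag at site 2 had 118 and 60 copies, a log2 ratio of -0.94 (95% interval -1.41 to -0.48, FDR 0.00221 by the same exact test). The tag at site 4 had 147 and 160 copies, a log2 ratio of 0.16 (95% interval -0.17 to 0.49). The tag at site 5 had 30 and 13 copies, a log2 ratio of -1.17 (Fisher's exact test, FDR 0.214). The interval at site 4 lay above those at sites 1 and 2, while the lower value at site 5 was not called. The tag of site 1 made up 42.6% of the copies of Map4 with Scramble against 23.6% with PIWIL1 RNAi, while that of site 4 held 24.96% and 44.4%. In a test of the most copied tag against the other tags of the same gene, which needs no scaling between libraries, the tags of Map4 moved apart (FDR 2.11e-07 by Fisher's exact test over 8296 genes with at least 2 tags). Without its site 1 tag, Map4 had 338 and 275 copies and a log2 ratio of -0.26 (FDR 0.494 by the exact test), so the call of Map4 rested on that tag.

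The site 4 tag of Map4 holds the letters AATAAA, the hexamer known as the canonical polyadenylation signal. It was the only tag of the 94 with AATAAA or its reverse complement TTTATT, which occurred in 2.39% of all 53118 tags. Over all tags with at least 20 copies, those with the hexamer had a median log2 ratio of -0.06 and all tags -0.08. The match is a description of the letters in the tag.

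**Figure D3:**
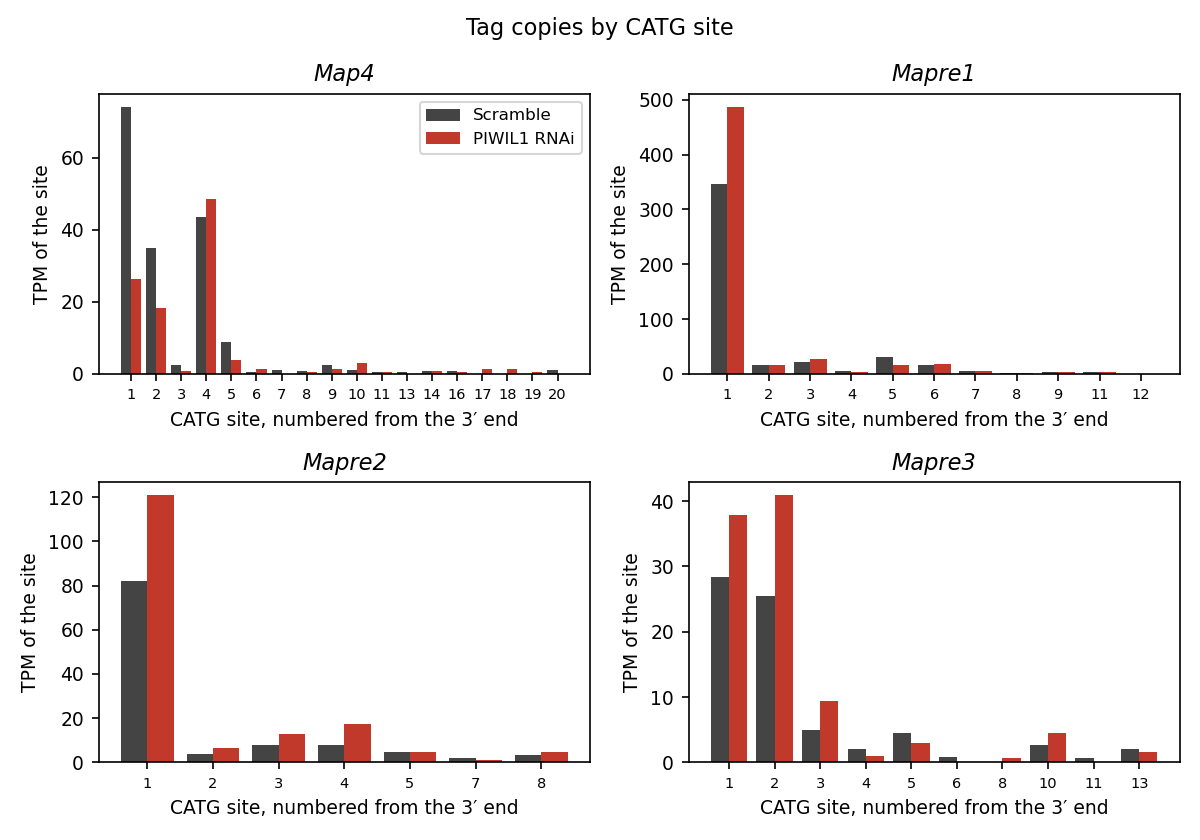
TPM at each CATG site with a tag, numbered from the 3′ end, for Map4, Mapre1, Mapre2 and Mapre3 in the Scramble library (dark bars) and the PIWIL1 RNAi library (red bars), 1 library each; sites without a tag are left out and the vertical scales differ. In Map4 sites 1 and 2 are lower and site 4 is not, and in Mapre1 site 1 is higher and site 5 lower. Of the sites with a tag of at least 20 copies, all 5 of Mapre2 are higher and 4 of 5 of Mapre3, where site 5 is lower.

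In Mapre1 the higher level was read at site 1. Its tag there had 1167 copies with Scramble against 1599 with PIWIL1 RNAi, a log2 ratio of 0.49 (95% interval 0.38 to 0.60, Fisher's exact FDR 2.90e-18), and held 76.7% and 83.0% of the gene's copies. The other tags together had 355 and 327 copies, a log2 ratio of -0.08. The tag at site 5 was called lower, with 104 and 56 copies and a log2 ratio of -0.86 (95% interval -1.35 to -0.37, Fisher's exact FDR 0.0162). The tag at site 3, with 71 and 92 copies, had a log2 ratio of 0.41 (95% interval -0.05 to 0.88). The other tags that reached 20 copies were not called: site 2 had 54 and 56 copies (log2 ratio 0.09), site 4 had 18 and 9 (-0.96), site 6 had 53 and 58 (0.17), site 7 had 18 and 19 (0.11), site 9 had 12 and 9 (-0.38) and site 11 had 11 and 12 (0.16). Of the 9 Mapre1 tags that reached 20 copies, 6 were higher and 3 lower, and the most copied tag moved apart from the others (FDR 0.000173 by the within-gene exact test). The higher level of Mapre1 thus came from its site 1 tag, whereas Map4 was called lower at site 2 as well as at site 1. Map4 and Mapre1 were the 2 of 9 genes that passed the within-gene test, which 7.05% of all genes with at least 2 tags passed.

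Mapre2 and Mapre3 were higher at most of the tags that reached 20 copies. All 5 tags of Mapre2 that reached 20 copies were higher with PIWIL1 RNAi, from 278 to 397 copies at site 1 (log2 ratio 0.55, 95% interval 0.33 to 0.78) and from 27 to 58 copies at site 4 (log2 ratio 1.14, Fisher's exact FDR 0.0156). Its tags at site 2 (13 and 21 copies, 0.73), site 3 (27 and 42, 0.67) and site 8 (12 and 16, 0.45) were not called. Its tags with fewer copies were not higher at site 5 (9 and 8 copies, and 7 and 7) or site 7 (7 and 3), and a further tag at site 1 had 0 and 2. Without its most copied tag, Mapre2 had 102 and 157 copies and a log2 ratio of 0.66 and was called higher (FDR 0.00155 by the exact test). For Mapre3, 4 of 5 tags that reached 20 copies were higher. Its tags at sites 1 and 2 were equally copied, with 221 copies in both libraries together for each. Site 1 had 96 and 125 copies (log2 ratio 0.42, 95% interval 0.02 to 0.82), and site 2 had 86 and 135 (log2 ratio 0.69, 95% interval 0.29 to 1.09, Fisher's exact FDR 0.0125). Of its other such tags, site 3 had 17 and 31 copies (0.90), site 5 had 15 and 10 (-0.55) and site 10 had 9 and 15 (0.77), and none was called. Tags of Mapre3 with fewer copies were lower at sites 4 (7 and 3 copies), 6 (3 and 0), 11 (2 and 0) and 13 (7 and 5), and higher at site 8 (0 and 2). The within-gene FDR was 0.934 for Mapre2 and 1 for Mapre3 by the same exact test, so no shift between their tags was detected.

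**Figure D4:**
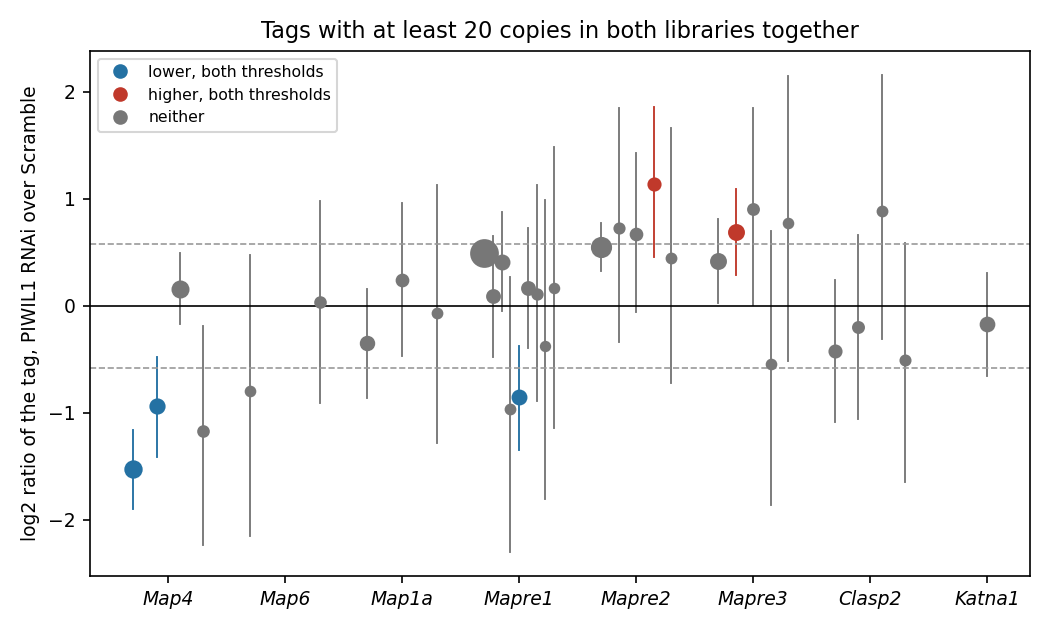
Log2 ratio, PIWIL1 RNAi over Scramble, of each of the 33 tags that reached 20 copies over the libraries together, by gene and from site nearest the 3′ end (left) to farthest (right); point area grows with the copies, lines are 95% exact intervals (counting error), and dashed lines mark 0.58 in each direction. Blue tags were called lower and red tags higher; the 5 tags of Mapre2 all lie above 0, and those of Map4 lie on both sides.

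The other genes were read mostly from 1 or a few sites. In Map1a the tag at site 1 had 77 and 59 copies (log2 ratio -0.35), the tag at site 2 had 33 and 38 (0.24), the tag at site 3 had 14 and 13 (-0.07), and no shift between them was detected (within-gene Fisher's exact FDR 0.360). Map6 was read mainly at site 10, 21 copies in each library, and at site 3, with 16 copies with Scramble against 9 with PIWIL1 RNAi. Clasp2 had its most copied tag at site 1, with 48 and 35 copies (-0.42). It had 27 and 23 copies at site 6 (-0.20), 10 and 18 at site 7 (0.88) and 19 and 13 at site 8 (-0.51), and 3 of its 4 tags that reached 20 copies were lower. Katna1 rested on its site 1 tag, with 81 and 70 copies, which was 85.3% of its copies with Scramble against 89.7% with PIWIL1 RNAi.

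The tags also show that the EB genes were told apart by sequence. Their transcripts share coding stretches, and tags from such stretches of different EB genes differed at 3 to 6 of 21 bases. The like tags of Mapre1 and Mapre3 are shown because they tell how these genes were separated, with the differing bases in capitals.
Mapre1, site 8: catgaAtaTatccaGaacttc
Mapre3, site 10: catgaGtaCatccaCaacttc
Mapre1, site 9: catgctcttcccCggCtCcAt
Mapre3, site 11: catgctcttcccTggTtGcGt
Mapre1, site 12: catgaCatgctGgcTtggAtc
Mapre3, site 13: catgaTatgctTgcGtggGtc
Each tag was listed under 1 gene. The files list tags that differ by 1 base from a more copied tag of the same site under the same gene. Mapre1 had 7 such tags at site 1, with 17 copies in all or 0.493% of its copies, beside 2766 copies of the main tag. Mapre2 had 2 with 16 copies, of which 14 (7 in each library) belonged to a tag at site 5 beside 17 copies of the other tag there. Map4 and Clasp2 had 1 each, with 2 copies.

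The ratio of a tag moved with the bases at its end over the whole of both libraries, and these values stand beside the results. Among tags with at least 20 copies, the median log2 ratio was -0.67 for tags ending in GT, -0.10 for GA, -0.21 for TT and 0.11 for AG, and -0.08 for all tags. The site 1 tag of Map4 ends in GT, the site 2 tag of Map4 and the site 5 tag of Mapre1 in GA, the site 4 tag of Map4 in TT and the site 1 tag of Mapre1 in AG. The correction took out the median of each end less the median of all tags. The log2 ratio was then -0.97 at site 1 of Map4, -0.93 at site 2 and 0.32 at site 4, and it was 0.32 at site 1 of Mapre1 and -0.80 at site 5. Summed over tags, the corrected log2 ratio was -0.42 for Map4, which then no longer reached 0.58 (Fisher's exact FDR 0.00143). It was 0.24 for Mapre1, 0.48 for Mapre2 and 0.35 for Mapre3, with FDRs of 6.37e-07, 1.97e-06 and 0.0178 by the same exact test. The order of the EB genes was kept, and 2 of the 9 genes passed the within-gene test. None of the copies of the 9 genes was on a tag ending in 8 or more A.

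Of 121 other genes of the microtubule system in 6 lists, 70 symbols were listed under 71 identifiers. The lists covered other structural MAPs, other plus-end proteins, severing enzymes and depolymerising kinesins, minus-end and nucleation proteins, tubulin-modifying enzymes and tubulin folding cofactors. In total 13 of the 71 (18.3%) were called lower, none was called higher and 58 were not called, beside the 5.97% and 2.96% of all genes. This share is descriptive, since the lists were chosen with earlier results of these data known. The 13 also include Mapt, Map1b and Map2, which the study selected from these libraries. The median log2 ratio of the 67 listed in both libraries was -0.05. With copies corrected for the tag end, 9 of the 71 were called lower and 3 higher, beside 377 and 180 of all 9894 genes.

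Among other structural MAPs, 5 of 16 were called lower. These included Mapt, coding for Tau (4138 and 2514 copies, log2 ratio -0.68), Map1b (3392 and 1758 copies, -0.91), 1 of the 2 identifiers of Dclk1, a kinase with doublecortin domains (330 and 188 copies, -0.78), and Tpx2, a spindle assembly factor (152 and 96 copies, -0.63). With copies corrected for the tag end Tpx2 was at -0.40 and was not called. The study selected MAP1B, Tau and MAP2 from these libraries, so their place in the list is not independent evidence of its direction. The other identifier of Dclk1 had 1226 and 1218 copies and a log2 ratio of 0.03. Markers of dividing cells stood beside Tpx2: Cdk1 had a log2 ratio of -0.32 (corrected -0.04) and Ccnb1 of -0.55 (corrected -0.23), the summed level of both was 229.7 TPM with Scramble against 177.1 with PIWIL1 RNAi, the other 2 of the 4 markers were not listed, and their part in the values of Tpx2 was not tested.

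Among 18 other plus-end proteins, only Clip4, of the CLIP-170 family, was called, with 9 copies in the Scramble library and none listed in the PIWIL1 RNAi library (Fisher's exact FDR 0.0277). The median log2 ratio of the 17 listed in both libraries was 0.001. With copies corrected for the tag end 2 were called higher, the dynactin subunit Dctn1 (887 and 1036 copies, log2 ratio 0.26, corrected 0.67) and Nav2, a neuron navigator protein (195 and 240 copies, 0.34, corrected 0.84). Both were chosen for naming after their values were seen.

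Of 7 severing enzymes and depolymerising kinesins other than Katna1, Katnbl1, a regulator of katanin, was called lower (45 and 18 copies, log2 ratio -1.29). The other 6 had log2 ratios above 0 and were not called, although with copies corrected for the tag end the kinesin Kif18b (64 and 87 copies, 0.48) was at 0.70 and called higher. Of 18 minus-end and nucleation proteins 3 were called lower: Akap9, a scaffold of the centrosome and Golgi (192 and 99 copies, log2 ratio -0.92), Mzt2b, of the gamma-tubulin ring complex (72 and 39 copies, -0.85), and Haus1, of the augmin complex (43 and 19 copies, -1.14). Of 8 tubulin-modifying enzymes 1 was called lower, Agtpbp1, a carboxypeptidase that trims glutamates from tubulin (285 and 176 copies, -0.66). Of 4 tubulin folding cofactors 2 were called lower, Tbcb (556 and 254 copies, -1.09) and Tbca (148 and 71 copies, -1.02). With copies corrected for the tag end, Akap9, Mzt2b, Tbcb and Tbca were still called, and Katnbl1, Haus1 and Agtpbp1 were not.

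**Figure D5:**
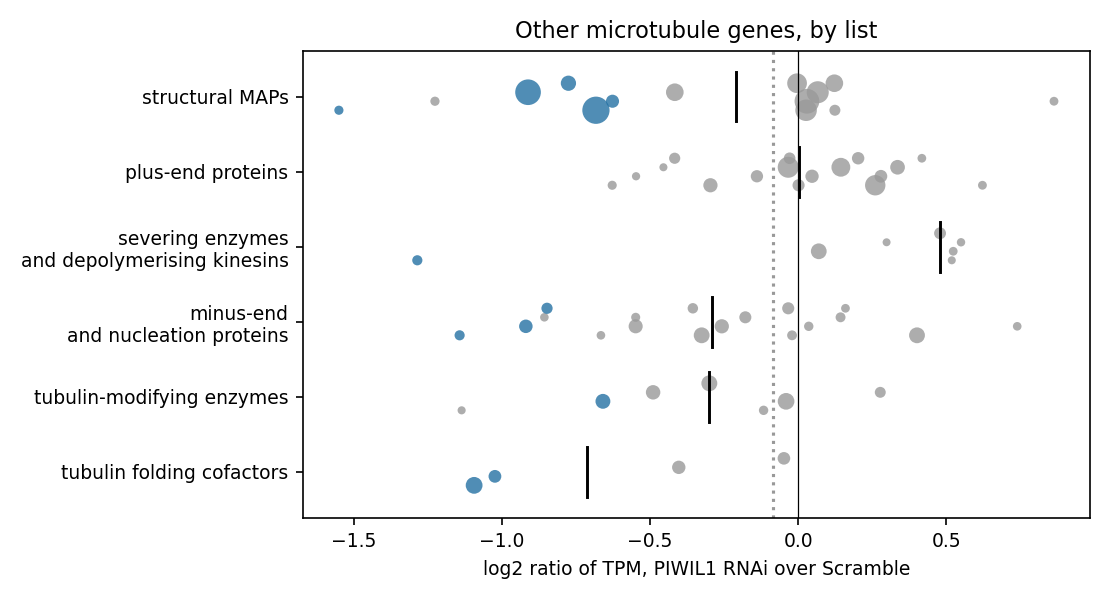
Log2 ratio of TPM, PIWIL1 RNAi over Scramble, of the microtubule genes outside the 10 described, by list; each point is 1 identifier listed in both libraries, its area grows with its copies, blue points were called lower, grey points were not called, black ticks are list medians and the dotted line is the median of all genes. Called genes lie at -0.63 or below, and in the tubulin folding cofactors 2 of 4 are called.

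Markers of other cells that the culture could hold are given as values beside these results. The summed level of the 7 listed progenitor or radial glia markers was 1077 TPM with Scramble against 1361 with PIWIL1 RNAi, and 6 of the 7 had log2 ratios below 0 while Vim had 0.51. The 4 listed astrocyte markers summed to 113.4 and 123.8 TPM, the 4 microglia markers to 18.3 and 20.9, the 7 oligodendrocyte lineage markers to 8.57 and 6.96, the 5 fibroblast or meningeal markers to 546.2 and 523.1 and the 5 interneuron markers to 41.6 and 49.6. Of 5 endothelial markers 1 was listed, with 2 copies in the PIWIL1 RNAi library. Of the 9 listed neuronal markers 4 were below 0: Snap25, Neurod6 (log2 ratio -0.55), Tubb3 (-0.49) and Stmn2 (-0.36). The 5 above 0 were Gap43, Neurod2, Dcx (0.07), Rbfox3 with 8 copies in each library, and Syt1 with 5 copies in the PIWIL1 RNAi library alone. Snap25 was called lower (918 and 545 copies, log2 ratio -0.72), but not with copies corrected for the tag end (-0.57), Gap43 had 2670 and 3541 copies (0.44, and -0.47 corrected) and Neurod2 had 570 and 777 (0.48, and 0.29 corrected), and the summed level was 4665 TPM with Scramble against 4188 with PIWIL1 RNAi. The part of any of these in the values of Map4 and the EB genes was not tested.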

How the data were processed

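Digital gene expression tags of 2 libraries of rat cortical neurons, 1 per group, were used as deposited. The authors deposited, for each gene, the count of tag copies, which is not normalized, and the TPM, which scales this count to clean tags of the library. The submitters' processing notes name the build rn4; the mapping program and transcript release are not given in the sources used here. In each row the gene count was the sum of its tag counts.

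Symbols came from a RefSeq table of another build (GRCr8) by accession, and for Map6 and Tubg2 from the description in the files; 9339 of 9894 genes (94.4%) had one. No coordinates are given because the builds differ. The genes described and the lists were chosen with earlier results of these data known. The named genes are all those described, their tags with at least 20 copies, and of each list the called genes, at most the 4 with the most copies in each direction. Dctn1, Nav2, Kif18b and the cell type markers were named outside this rule, after their values were seen. So were the tags of Mapre2 and Mapre3 below 20 copies.

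Two-sided Fisher's exact tests compared the copies of each gene, of each tag and, inside a gene, of the most copied tag with those of its other tags. FDR is the Benjamini-Hochberg adjusted value over all genes or tags. Log2 ratios of genes are from TPM and those of tags from copies per clean tag, and intervals are exact (Clopper-Pearson, and conditional for differences between genes) at 95%. The tag-end correction grouped tags on their final 2 bases, or on a terminal A run of 3 to 13 or longer. For tags with at least 20 copies (0.5 copies added), each group median less the median of all groups together was taken from alternate genes. This difference was subtracted from the remaining genes. Alternatives were TMM factors from edgeR (1.02 and 0.976), DESeq2 scaling (1.04 and 0.959), an edgeR exact test under assumed variation, and changes of filter, tags, totals and thresholds. The tests of genes and of the most copied tag were run on simulated counts with counting error only. The simulation had neither variation between replicates nor differences between tag ends, so it does not show how calls would hold in these data. Python 3.11.15, SciPy 1.17.1, pandas 2.3.3, R 4.3.3, edgeR 4.0.16 and DESeq2 1.42.0 were used.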

Additional observations from a re-analysis of the deposited data

How the results depend on the processing

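With 18 alternatives, Map4 was lower in every one, from -1.53 to -0.26, and kept its call in 11. Main counts were 2 genes lower (Map4 and Map9) and 0 higher. 1 gene was lower with TMM factors (Map9), a minimum of 10 copies in either or both libraries (Map4), tags with 8 or more terminal A removed (Map4), tag-end correction (Map9), the most copied tag only (Map4), 1 copy put back (Map4), a log2 threshold of 1 (Map9) and an FDR threshold of 0.001 (Map4). 0 were lower without the most copied tag and with variation between replicates set to 0.1, 0.2 or 0.4 in edgeR's exact test, where no gene of the 9 was called in either direction. 1 gene, Mapre2, was higher with TMM factors (0.67), DESeq2 size factors (0.66), without the most copied tag (0.66) and scaled to copies on genes (0.61), the last chosen after seeing the data. With TMM factors Map4 was at -0.5798, short of 0.58 in size, and was not called. Of the 3 lower tags 1 was left with a log2 threshold of 1 or an FDR threshold of 0.001; of the 2 higher tags 1 was left with tag-end correction or a log2 threshold of 1, and 0 with an FDR threshold of 0.001. The 2 genes with a shift between tags stayed 2 in all 5 alternatives. Signs turned, in values that were not called, for Map1a with TMM factors (0.054), DESeq2 size factors (0.044), tag-end correction (0.090) and without its most copied tag (0.29), for Map6 with its most copied tag only (0.036) and for Mapre1 without its most copied tag (-0.083). Clasp2, Katna1 and Mapre3 kept direction and call in all 18. Where a call was lost by changing the tags, scaling or assumed variation, the cause was not tested beyond that change. The scaling moved the median of all genes from -0.085 to 0.0095 with TMM factors. Over all genes 591 were lower and 293 higher, against 459 and 398 with TMM factors, 475 and 382 with DESeq2 size factors, 377 and 180 with tag-end correction, 250 and 128 without the most copied tag, 262 and 146 with a log2 threshold of 1, 257 and 163 with an FDR threshold of 0.001, and 170 and 114, 2 and 15, and 0 and 0 with the 3 assumed variations. No paired analysis was possible because each group has 1 library. Map9 had no ratio without its most copied tag, since 2 copies remained, nor with 10 copies required.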
